A study of Mus musculus with 13 samples.

Results

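The data are described here for 10 genes of the blood vessel endothelium and of angiogenesis, in parametrial white adipose tissue (pmWAT) of mice: the ligand genes *Vegfa*, *Vegfb*, *Angpt1* and *Angpt2*, the receptor genes *Kdr*, *Flt1*, *Tek* and *Tie1*, and the endothelial identity genes *Pecam1* and *Cdh5*. They were chosen by name and matched to the Ensembl identifiers of the raw count table, which holds 33618 of them. All 10 were found, and all 10 were among the 16753 genes that passed the filter on low counts. The study asked what the loss of lamin A/C in adipocytes does to adipose tissue. Controls were *Lmna fl/fl* mice, which carry *loxP* sites around exons 10 and 11 of *Lmna* and no Cre. *Lmna* iADKO mice carry the same floxed alleles and Adipoq-CreER T2, a tamoxifen-inducible Cre under the adiponectin promoter, so that recombination is directed to adipocytes. All mice were female and received tamoxifen at 50 mg/kg on 5 consecutive days at 12 to 14 weeks of age, and pmWAT was taken 2 weeks later. Bulk mRNA was sequenced in 1 library per mouse, with 7 libraries labelled fl/fl and 6 labelled iADKO; mice are the replicates, and all libraries carry 1 batch date. The library names carry animal numbers in 4 runs, and both labels occur in 2 of them, 722 to 727 (2 mice of each label, which include fl/fl replicate 5 and iADKO replicate 6) and 747 to 765 (3 fl/fl and 2 iADKO mice). The other 2 runs each hold mice of 1 label. The runs entered 1 alternative fit as a term. In that fit only the 2 runs with both labels inform the log2 fold change, so it rests on fewer mice than the main fit. Total counts on genes ran from 19147428 to 19776491 per fl/fl library (median 19533703) and from 18854223 to 19569221 per iADKO library (median 19494365). Levels are CPM, counts scaled to a common library size after TMM normalization, which sets a factor per library from the bulk of its genes. Log2 fold changes are iADKO minus fl/fl with their standard error (SE), and a gene was called at an adjusted p under 0.05 in edgeR's quasi-likelihood test, adjusted by Benjamini-Hochberg over all genes tested.

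Capillaries run along nearly every adipocyte, and endothelial cells line them. VEGF-A, which adipocytes secrete in quantity, acts on endothelial cells through VEGFR2 (*Kdr*), while VEGFR1 (*Flt1*) binds both VEGF-A and VEGF-B and can act as a decoy that limits signaling through VEGFR2. Angiopoietin-1, made largely by mural and stromal cells, activates the receptor TIE2 (*Tek*) and quiets vessels, angiopoietin-2 is released by endothelial cells and can oppose it, and TIE1 is a coreceptor of TIE2.

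*Lmna* (ENSMUSG00000028063), the targeted gene, lay between 74.7 and 98.5 CPM in fl/fl (median 83.5) and between 80.1 and 109 CPM in iADKO (median 96.8). The groups overlapped, and 3 iADKO libraries were above every fl/fl library. The log2 fold change was 0.19 (SE 0.0789, edgeR adjusted p = 0.0785), and with library size in place of TMM it was 0.40 (adjusted p = 0.00101). It also passed as higher with scaling to pan-endothelial genes (0.29, adjusted p = 0.0218), without fl/fl replicate 1 (0.23, adjusted p = 0.0411) and without iADKO replicate 6 (0.24, adjusted p = 0.0208). The count covers the whole gene and all cells of the depot. Exons 10 (chr3:88390625-88390720 of GRCm39) and 11 (chr3:88389653-88389919) cannot be counted apart from the other exons of the 12-exon canonical transcript. *Lmna* was therefore not lower in the libraries labelled iADKO, and every direction below rests on the labels.

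Of the 10 genes, 6 were lower in the libraries labelled iADKO, 0 were higher and 4 were not called, and with library size in place of TMM 3 were lower and 1 was higher. At an unadjusted p under 0.05, as in DESeq2, 6 were lower and 0 higher. *Vegfa* and *Vegfb* had the largest decreases, followed by *Kdr*, *Angpt1*, *Cdh5* and *Flt1*, while *Pecam1*, *Tek*, *Tie1* and *Angpt2* did not pass the test. Across all 16753 genes tested, edgeR called 16.3% lower and 14.1% higher. The median log2 fold change was -0.28 over the 10 genes and 0.033 over all genes. In 2 of the 10 genes, *Vegfa* and *Kdr*, every iADKO library was below every fl/fl library, which held for 3.93% of all genes, and in 0 was every iADKO library above every fl/fl library, which held for 2.71%. In bulk tissue, fewer cells of a type and less RNA per cell cannot be told apart.

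**Figure D1:**
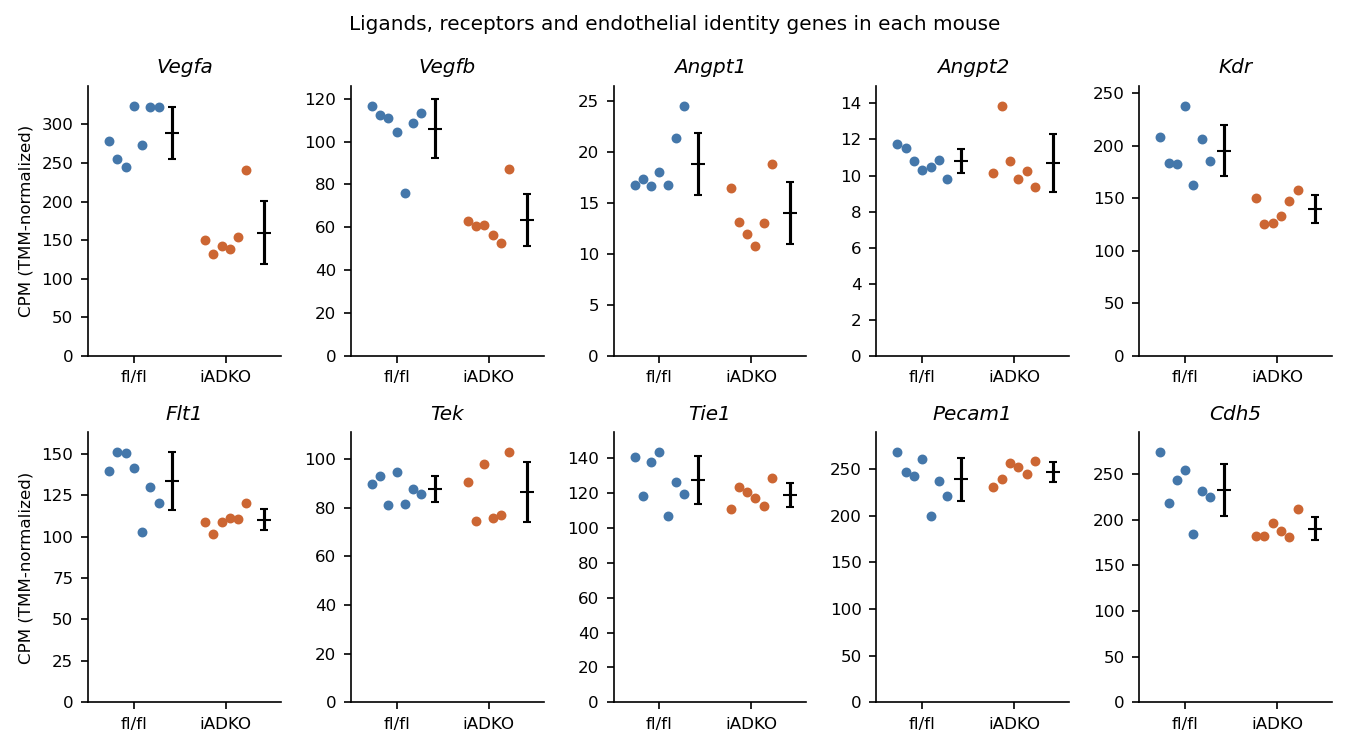
TMM-normalized CPM of the 10 genes in each mouse (points; 7 fl/fl and 6 iADKO), with mean and SD (bars) beside each group; each vertical axis starts at 0. *Vegfa* and *Kdr* show no overlap between labels, *Vegfb* overlaps through fl/fl replicate 5 at 75.8 CPM and iADKO replicate 6 at 87.3 CPM, and the points of *Pecam1*, *Tek*, *Tie1* and *Angpt2* overlap.

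The scaling of the libraries bears on these calls. TMM factors ran from 0.892 to 1.02 for fl/fl and from 1.05 to 1.10 for iADKO. The share of the 10 most abundant genes ran from 9.54% to 14.3% of an fl/fl library and from 6.51% to 9.12% of an iADKO library. With library size in place of TMM, the median over all genes moved by 0.20, to 0.24, and 1276 genes were lower and 7397 higher, against 2737 and 2367 with TMM. Under that scaling *Vegfa*, *Vegfb* and *Kdr* were called lower, *Cdh5*, *Flt1* and *Angpt1* were not called, *Pecam1* was called higher (log2 fold change 0.25, adjusted p = 0.00191), and *Tek* (0.18), *Tie1* (0.11) and *Angpt2* (0.19) turned positive without passing. Relative to the median of all genes, no member moved by more than 0.0055 between these scalings. With scaling to the summed counts of pan-endothelial genes, which called 1654 genes lower and 2451 higher, *Vegfa*, *Vegfb*, *Kdr* and *Cdh5* were lower and *Pecam1* was higher (0.15, adjusted p = 0.0444). There *Flt1* (-0.17, adjusted p = 0.0599) and *Angpt1* (-0.34, adjusted p = 0.0955) did not pass, and *Tek* (0.075), *Tie1* (0.0010) and *Angpt2* (0.084) were positive without passing.

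The cell markers of the tissue moved between labels as well, and their counts are read beside 16.3% lower and 14.1% higher among all genes. All 8 adipocyte marker genes were lower in iADKO, with a median log2 fold change of -0.94, and their summed level was 15999 to 23152 CPM in fl/fl (median 20785) and 9452 to 16358 CPM in iADKO (median 10664). The most abundant was *Cfd* (log2 fold change -0.69, adjusted p = 0.00462), and 0 of the markers of either cell type were at 0 in all libraries. Of 9 macrophage marker genes, 8 were higher and 1 was not called, with a median of 0.69 and *Csf1r* the most abundant (0.49, adjusted p = 0.0331). With the runs of animal numbers as a term edgeR called 0 macrophage genes, at a median of 0.71, and 7 adipocyte genes lower, at a median of -0.86, while at an unadjusted p under 0.05 without that term, and in DESeq2, 8 macrophage genes were higher. Their summed level was 1528 to 2864 CPM in fl/fl (median 1820.4) and 2040.3 to 3506 CPM in iADKO (median 3005). The fl/fl library with the least adipocyte and the most macrophage marker RNA was replicate 5, and the iADKO library with the most adipocyte and the least macrophage marker RNA was replicate 6. The share of mitochondrially encoded genes ranged from 2.84% to 5.07% in the fl/fl libraries and from 2.39% to 3.99% in the iADKO libraries. What part the adipocyte and macrophage RNA had in the results for endothelial and angiogenic genes was not tested.

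Among the ligands, *Vegfa* (ENSMUSG00000023951; minus strand, chr17:46327919-46343309 of GRCm39, 7 exons in the canonical transcript) encodes VEGF-A, the main growth factor of endothelial cells. It lay between 245 and 324 CPM in the 7 fl/fl libraries (median 278) and between 132 and 241 CPM in the 6 iADKO libraries (median 146). The labels did not overlap, and iADKO replicate 6, at 241 CPM, was the only iADKO library above 154 CPM. Means were 289 ± 33.9 CPM in fl/fl (SD, n = 7) against 159.7 ± 40.7 CPM in iADKO (SD, n = 6), and the log2 fold change was -0.86 (SE 0.133, edgeR adjusted p = 6.75e-04) or 55.3% of the fl/fl level. Of all genes tested, 2.76% had a fold change as low or lower. Without iADKO replicate 6 the log2 fold change was -1.01.

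*Vegfb* (ENSMUSG00000024962; minus strand, chr19:6958447-6965127) encodes VEGF-B, which binds VEGFR1 and not VEGFR2. It lay between 75.8 and 117 CPM in fl/fl (median 111) and between 52.7 and 87.3 CPM in iADKO (median 60.9). The overlap came from fl/fl replicate 5, the lowest of its label, and iADKO replicate 6, the highest of its label, while 5 iADKO libraries lay below every fl/fl library. Means were 106 ± 13.9 CPM in fl/fl (SD, n = 7) against 63.6 ± 12.2 CPM in iADKO (SD, n = 6), and the log2 fold change was -0.74 (SE 0.119, edgeR adjusted p = 7.94e-04) or 60.0% of the fl/fl level. *Trpt1* lies across part of *Vegfb* on the opposite strand, shares 0 exon bases with it, and was lower as well (log2 fold change -0.50, SE 0.132, adjusted p = 0.0122).

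Of the angiopoietins, *Angpt1* (ENSMUSG00000022309; minus strand, chr15:42288058-42540417) lay between 16.7 and 24.5 CPM in fl/fl (median 17.4) and between 10.7 and 18.8 CPM in iADKO (median 13.1). The labels overlapped through iADKO replicate 6, the highest of its label, and the other 5 iADKO libraries lay below every fl/fl library. Means were 18.8 ± 3.02 CPM in fl/fl (SD, n = 7) against 14.0 ± 3.02 CPM in iADKO (SD, n = 6), and the log2 fold change was -0.42 (SE 0.134, edgeR adjusted p = 0.0284). This call was lost in 6 of the 13 fits that left out 1 mouse, with an adjusted p of 0.0571 without fl/fl replicate 6, 0.0515 without fl/fl replicate 7, 0.0597, 0.0648, 0.0661 and 0.0608 without iADKO replicates 2, 3, 4 and 5, and with the runs of animal numbers as a term (-0.21, adjusted p = 0.320).

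*Angpt2* (ENSMUSG00000031465; minus strand, chr8:18739202-18791603) lay between 9.81 and 11.7 CPM in fl/fl (median 10.8) and between 9.38 and 13.9 CPM in iADKO (median 10.2). The fl/fl range lay inside the iADKO range, which iADKO replicate 2 extended upward. The log2 fold change was -0.012 (SE 0.0903, edgeR adjusted p = 0.932), with 182 to 297 counts per library. *Mcph1* runs across *Angpt2* on the opposite strand and shares 3387 exon bases with it. The libraries were made with a strand-specific kit, but whether the counting used the strand is not given in the sources used here, and *Mcph1* itself was lower in iADKO (log2 fold change -0.47, SE 0.117, adjusted p = 0.00918), so that the level of *Angpt2* is uncertain. For *Angpt1*, the antisense RNA *Gm17473* shares 815 exon bases and had at most 7 counts in any mouse.

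Of the VEGF receptors, *Kdr* (ENSMUSG00000062960; minus strand, chr5:76093487-76139884), which encodes VEGFR2, lay between 162 and 238 CPM in fl/fl (median 185) and between 126 and 158 CPM in iADKO (median 141). Every iADKO library was below every fl/fl library, with fl/fl replicate 5 at 162 CPM and iADKO replicate 6 at 158 CPM nearest each other. Mean levels came to 195 ± 24.5 CPM in fl/fl (SD, n = 7) against 140.2 ± 13.4 CPM in iADKO (SD, n = 6), and the log2 fold change was -0.48 (SE 0.0862, edgeR adjusted p = 0.00151) or 71.7% of the fl/fl level. *Flt1* (ENSMUSG00000029648; minus strand, chr5:147498414-147662826), which encodes VEGFR1, lay between 103 and 151 CPM in fl/fl (median 139.7) and between 101 and 120.4 CPM in iADKO (median 109.8). The labels overlapped through fl/fl replicates 5 and 7 and iADKO replicate 6, 5 fl/fl libraries lay above every iADKO library, and iADKO replicate 2 lay below every fl/fl library. Mean levels came to 134 ± 17.4 CPM in fl/fl (SD, n = 7) against 110.3 ± 6.07 CPM in iADKO (SD, n = 6), and the log2 fold change was -0.28 (SE 0.0815, edgeR adjusted p = 0.0202). Without iADKO replicate 2 the log2 fold change was -0.25 (adjusted p = 0.0508), and with the runs of animal numbers as a term it was -0.30 (adjusted p = 0.0839).

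The Tie receptors did not pass the test. *Tek* (ENSMUSG00000006386; plus strand, chr4:94627291-94763224), which encodes TIE2, lay between 80.9 and 94.5 CPM in fl/fl (median 87.8) and between 74.5 and 103 CPM in iADKO (median 83.7). The iADKO libraries lay on both sides of the fl/fl range, 3 below it and 2 above it. The log2 fold change was -0.020 (SE 0.0803, edgeR adjusted p = 0.870). *Tie1* (ENSMUSG00000033191; minus strand, chr4:118328385-118347261) lay between 107 and 143 CPM in fl/fl (median 126) and between 111 and 129 CPM in iADKO (median 119), with all iADKO libraries inside the fl/fl range. Its log2 fold change was -0.099 (SE 0.0696, edgeR adjusted p = 0.292).

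Of the identity genes, *Cdh5* was called and *Pecam1* was not, and the difference between them was not tested. *Pecam1* (ENSMUSG00000020717; minus strand, chr11:106543689-106641454) encodes CD31, an adhesion molecule of endothelial junctions that some leukocytes and platelets also carry. It lay between 200.1 and 268 CPM in fl/fl (median 242) and between 230.4 and 259 CPM in iADKO (median 249). All iADKO libraries lay inside the fl/fl range, whose low end was fl/fl replicate 5. Mean levels came to 239 ± 23.1 CPM in fl/fl (SD, n = 7) against 247 ± 11.1 CPM in iADKO (SD, n = 6), and the log2 fold change was 0.046 (SE 0.0661, edgeR adjusted p = 0.619). *Cdh5* (ENSMUSG00000031871; plus strand, chr8:104828231-104871143) encodes VE-cadherin, the cadherin of endothelial junctions. It lay between 184 and 273 CPM in fl/fl (median 231) and between 181 and 212 CPM in iADKO (median 184). Apart from fl/fl replicate 5, at 184 CPM, every fl/fl library was above every iADKO library. Mean levels came to 233 ± 28.5 CPM in fl/fl (SD, n = 7) against 190.03 ± 12.3 CPM in iADKO (SD, n = 6), and the log2 fold change was -0.29 (SE 0.0799, edgeR adjusted p = 0.0140). With the runs of animal numbers as a term the call was lost (-0.30, adjusted p = 0.0932).

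Differences within runs of animal numbers varied by gene. The difference in mean log2 CPM of *Vegfa* was -0.70 in the run of 722 to 727 and -0.88 in that of 747 to 765. In the same order it was -0.34 and -0.87 for *Vegfb*, and -0.44 and -0.48 for *Kdr*. *Cdh5* differed by -0.12 and -0.43, *Flt1* by -0.059 and -0.48, and *Angpt1* by -0.29 and -0.20. The median over all genes was 0.0061 and 0.029. The 6 genes called lower had the same sign in both runs, with *Flt1* and *Cdh5* the ones that differed least between labels in the run of 722 to 727. With the runs as a term, 3 of the 10 genes were called lower, *Vegfa* (-0.78, adjusted p = 0.0154), *Vegfb* (-0.62, adjusted p = 0.0295) and *Kdr* (-0.47, adjusted p = 0.0302). Across all 16753 genes that fit called 1202 lower and 784 higher.

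Ratios within a library do not depend on the scaling between libraries. The log2 ratio of *Kdr* to *Flt1* was 0.29 to 0.75 in fl/fl (median 0.63) and 0.21 to 0.46 in iADKO (median 0.35). The ranges overlapped, with 2 iADKO libraries below every fl/fl library, and the means were -0.21 apart (two-sided exact permutation test, p = 0.0361, 0.114 adjusted over 4 ratios), which does not pass. The log2 ratio of *Angpt2* to *Angpt1* was -1.31 to -0.51 in fl/fl (median -0.68) and -0.996 to 0.074 in iADKO (median -0.24). Here 4 of 6 iADKO libraries lay above every fl/fl library, and iADKO replicate 6 was the lowest of its label. The means were 0.41 apart (p = 0.0571, adjusted p = 0.114, exact permutation test, two-sided), and without iADKO replicate 6 by 0.54 (adjusted p = 0.0455, exact permutation). Among the alternatives tried for this ratio, 15 left the result the same and 1 made it stronger. The means of the *Vegfa* to *Vegfb* ratio were -0.13 apart (p = 0.294, adjusted p = 0.392, exact permutation test, two-sided) and those of *Tek* to *Tie1* by 0.065 (p = 0.492, adjusted p = 0.492, same exact test). The smallest p that 7 mice against 6 allow is 0.000583. These permutations did not use the runs of animal numbers. In mean log2 CPM, *Kdr* and *Flt1* differed by -0.44 and -0.059 in the run of 722 to 727. Both differed by -0.48 in that of 747 to 765. *Angpt2* and *Angpt1* differed by -0.12 and -0.29 in the run of 722 to 727, and by 0.061 and -0.20 in that of 747 to 765.

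**Figure D2:**
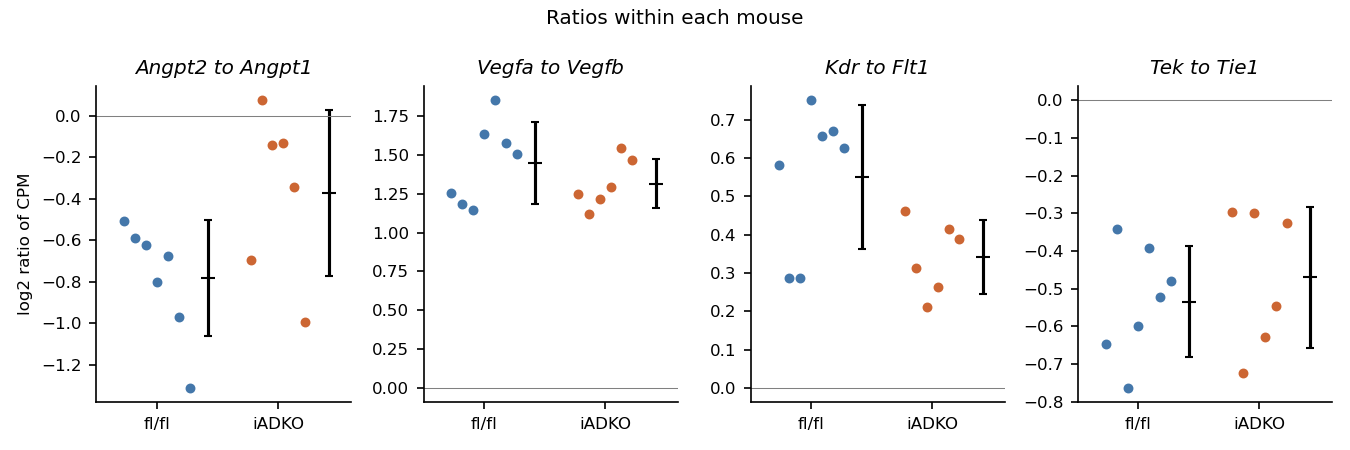
Log2 ratio of CPM within each mouse for 4 pairs of genes (points; 7 fl/fl and 6 iADKO), with mean and SD (bars); the gray line marks a log2 ratio of 0, and vertical axes differ between panels. The *Kdr* to *Flt1* points of iADKO lie between 0.21 and 0.46, inside or below the fl/fl range, and 4 iADKO points of *Angpt2* to *Angpt1* lie above all fl/fl points.

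Levels can be compared between genes per kilobase of transcript. Divided by the length of the canonical transcript, the order in fl/fl was *Vegfa* (83.4 CPM per kb), *Pecam1* (65.1), *Cdh5* (57.9), *Vegfb* (56.1), *Kdr* (33.0), *Tie1* (31.1), *Flt1* (19.4), *Tek* (17.7), *Angpt1* (4.31) and *Angpt2* (2.31 CPM per kb). Some neighbors in this order had means closer than their spread across mice. *Cdh5* was above *Vegfb* in 5 of 7 mice (SD 7.08 and 7.34). *Kdr* was above *Tie1* in 6 of 7 (SD 4.14 and 3.30). *Flt1* was above *Tek* in 6 of 7 (SD 2.52 and 1.07 CPM per kb). In iADKO the order began with *Pecam1* (67.2 CPM per kb), *Cdh5* (47.3), *Vegfa* (46.1), *Vegfb* (33.6) and *Tie1* (29.0), and *Kdr* (23.7) came after *Tie1* in all 6 mice. *Vegfb* was above *Tie1* in all 6 mice as well, though the means were closer than the SD of *Vegfb* (SD 6.44 and 1.63). *Cdh5* was above *Vegfa* in 5 of 6 mice (SD 3.06 and 11.8). *Tek* was above *Flt1* in 4 of 6 (17.5 and 16.0, SD 2.49 and 0.881 CPM per kb). Divided instead by the union of all annotated exons, a length chosen after seeing the data, *Pecam1* was at 23.9 and *Cdh5* at 53.1 CPM per kb in fl/fl, so the place of *Pecam1* depends on the length used. With the union length *Tie1* was above *Kdr* (25.4 and 21.2 CPM per kb in fl/fl, 23.8 and 15.2 in iADKO) and *Tek* above *Flt1* (14.6 and 9.78 in fl/fl, 14.4 and 8.07 in iADKO) in the means of both labels, so the changes of place of these pairs between labels hold with the canonical length alone. In iADKO *Tie1* was also above *Vegfb* (19.5) with the union length. In fl/fl *Vegfa* (67.2) was highest and *Angpt2* (2.25 CPM per kb) lowest with both lengths.

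Of 27 other pan-endothelial genes tested, 4 were lower in iADKO, 2 were higher and 21 were not called, beside 16.3% lower and 14.1% higher among all genes, with a median log2 fold change of -0.15. *Nos3*, the endothelial nitric oxide synthase, fell from 90.2 ± 15.7 to 61.1 ± 6.19 CPM (SD, n = 7 and 6; log2 fold change -0.56, SE 0.118, edgeR adjusted p = 0.00362). *Robo4* (-0.38, adjusted p = 0.0108), *Ushbp1* (-0.25, adjusted p = 0.0231) and *Egfl7* (-0.21, adjusted p = 0.0448; its value was seen before it was named) also fell. *Fli1*, an ETS transcription factor that blood cells also express, rose by 0.17 (adjusted p = 0.0375) and *Calcrl*, the receptor subunit for adrenomedullin, by 0.22 (adjusted p = 0.0137). *Podxl*, the most abundant, was at 0.028 (adjusted p = 0.861). The summed level of the list was 1548 to 2014 CPM in fl/fl (median 1848) and 1614 to 1791 CPM in iADKO (median 1707), with all iADKO libraries inside the fl/fl range. With library size in place of TMM, 1 was lower and 6 were higher, and with the runs of animal numbers as a term 0 were called in either direction, with edgeR. Without fl/fl replicate 5, the lowest in summed level, 11 were lower, and without iADKO replicate 6, 7 were. Without iADKO replicate 2 or 4, 2 were lower.

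Genes of particular vessel segments are read beside the 16.3% of all genes called lower and the 14.1% called higher. Of 9 fat capillary genes, 5 were lower and 4 not called, with a median log2 fold change of -0.45, and with library size in place of TMM 2 were lower and 1 was higher. With the runs of animal numbers as a term 1 was lower, at a median of -0.44, and leaving out 1 mouse gave 3 lower (without iADKO replicate 1 or 2) to 8 lower (without iADKO replicate 6). *Rgcc* fell from 111 ± 19.58 to 77.8 ± 7.89 CPM (SD, n = 7 and 6; log2 fold change -0.52, edgeR adjusted p = 0.00446), and the transcription factor genes *Meox2* (-0.48, adjusted p = 0.00965) and *Tcf15* (-0.60, adjusted p = 0.0247) fell too. *Gpihbp1*, which carries lipoprotein lipase to the capillary lumen, fell by 0.45 on the log2 scale (adjusted p = 0.0187), and *Btnl9* by 0.47 (adjusted p = 0.0275); the values of both were seen before they were named. *Aqp1*, the most abundant, was at -0.23 (adjusted p = 0.140). Some genes stand on more than 1 list. Of 9 arterial genes (median -0.14, and 0.068 with library size), *Dll4* (-0.64, adjusted p = 0.00514) and *Sema3g* (-0.24, adjusted p = 0.0379) were lower and *Bmx* (0.49, adjusted p = 0.0130) was higher. Leaving out 1 mouse gave 1 arterial gene lower (as without fl/fl replicate 1) to 4 lower (without iADKO replicate 6). Of 6 venous genes (median 0.065), *Lrg1* was lower (-0.51, adjusted p = 0.0327), and of 7 lymphatic genes (median 0.16), *Reln* was higher (0.38, adjusted p = 0.0411), while *Lyve1*, the most abundant lymphatic gene, was at 0.27 (adjusted p = 0.345). With library size in place of TMM, 4 venous genes were higher and 0 lower (median 0.26), and 1 arterial gene was lower and 1 higher. With the runs as a term, edgeR called 0 arterial, venous or lymphatic genes in either direction.

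The other genes of the pathways ranged from coreceptors to adhesion molecules. Their counts are read beside the 16.3% of all genes called lower and the 14.1% called higher. Of 6 further VEGF family ligands, receptors and coreceptors, 1 was higher and 5 were not called, with a median log2 fold change of -0.031 (0.17 with library size). The coreceptor gene *Nrp2* rose from 115 ± 12.99 to 144 ± 8.69 CPM (SD, n = 7 and 6; log2 fold change 0.32, edgeR adjusted p = 0.00476), and *Nrp1*, the most abundant, was at 0.018 (adjusted p = 0.831). Of 6 Tie pathway partners, 2 were higher and 4 not called, with a median of 0.14, and DESeq2 called 2 higher and 2 lower. *Dok2*, an adaptor of TIE2 that is also abundant in myeloid cells, rose from 24.3 ± 4.18 to 48.5 ± 8.85 CPM (SD, n = 7 and 6; log2 fold change 1.00, adjusted p = 3.06e-04), the sheddase gene *Adam17* rose by 0.33 (adjusted p = 0.0308), and the phosphatase gene *Ptprb* was at -0.24 (adjusted p = 0.0586). Of 10 sprouting and tip cell genes, *Notch4* (-0.64, adjusted p = 0.00367) and *Dll4* were lower, with a median of -0.20 (0.012 with library size, where 2 were lower and 2 higher), and *Nid2*, the most abundant, was at -0.20 (adjusted p = 0.272). Of 5 adhesion genes of activated endothelium, 3 were higher, with a median of 0.38: *Vcam1* (0.49, adjusted p = 0.00394), *Icam1* (0.38, adjusted p = 0.0380) and *Sele* (0.89, adjusted p = 0.0461), the last at 0.941 and 1.76 CPM. *Selp* (0.12, adjusted p = 0.350) and *Ackr1* (0.010, adjusted p = 0.954) were not called in edgeR. Which cells of the depot carried these RNAs was not tested. Library size in place of TMM gave 4 adhesion genes higher, and with the runs of animal numbers as a term 1 was. That term gave 1 higher among the VEGF family genes, 1 higher among the Tie partners (median -0.021) and 1 lower among the sprouting genes.

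**Figure D3:**
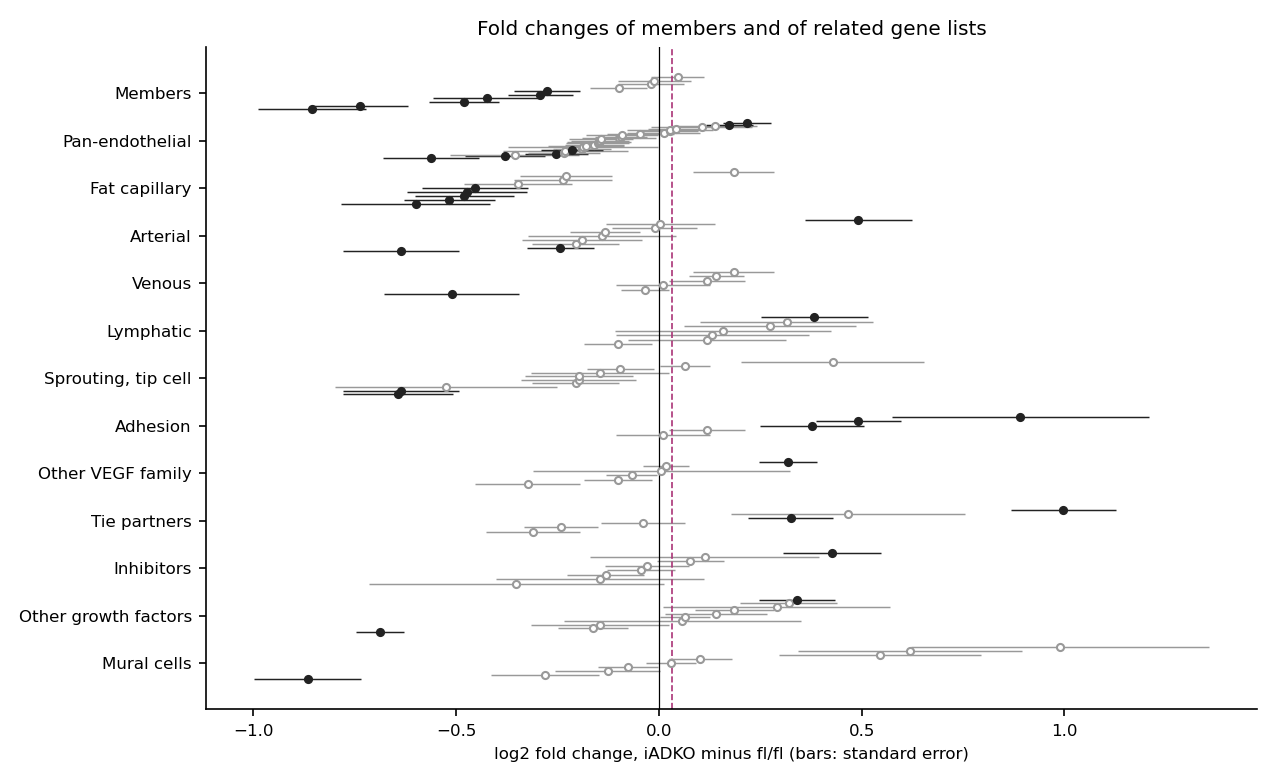
Log2 fold change (iADKO minus fl/fl; horizontal axis) of each tested gene of the 10 members and of 12 related lists, 1 point per gene with its SE as a bar; filled points passed an edgeR adjusted p of 0.05, the solid line is 0 and the dashed line the median of all genes, 0.033. The filled points of the members and of the fat capillary list lie left of 0, and those of the adhesion list lie right of it.

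Of 14 hypoxia response genes, 4 were lower and 2 higher, with a median log2 fold change of -0.023. The lists here are read beside 16.3% lower and 14.1% higher among all genes. With library size in place of TMM 3 hypoxia genes were lower and 6 higher, beside 1276 and 7397 of all 16753 genes. *Pdk1* (-1.04, edgeR adjusted p = 3.04e-04), *Bnip3* (-0.78, adjusted p = 4.15e-04), *Epas1*, which encodes HIF-2α (-0.47, adjusted p = 0.00345), and *Arnt*, its partner (-0.16, adjusted p = 0.0179; its value was seen before it was named), were lower. *Slc2a1*, a glucose transporter gene, was higher (0.45, adjusted p = 0.00548), as was *Vhl* (0.17, adjusted p = 0.0451). Several of these genes also act in adipocyte metabolism. Of 10 other angiogenic growth factors, *Fgf2* was lower and *Hgf* higher, with a median of 0.10, and with library size in place of TMM 1 was lower and 5 were higher (median 0.30). *Fgf2* fell from 112 ± 7.21 to 69.2 ± 5.33 CPM (SD, n = 7 and 6; log2 fold change -0.69, SE 0.0593, adjusted p = 4.53e-05), with no overlap between labels. *Hgf* rose by 0.34 (adjusted p = 0.0143), and *Cxcl12*, the most abundant, was at 0.19 (adjusted p = 0.158). Of 8 angiogenesis inhibitors, *Adamts1* was higher (0.43, adjusted p = 0.0175), the median was -0.036 (0.17 with library size, where 2 were higher), and *Timp3*, the most abundant, was at -0.044 (adjusted p = 0.714). With the runs of animal numbers as a term, *Adamts1* did not pass (0.25, adjusted p = 0.207), 3 hypoxia genes were lower and 1 was higher, and 1 growth factor gene was lower and 1 higher.

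Mural cells, which wrap capillaries and larger vessels, were represented by 9 genes, of which 1 was lower and 8 were not called, with a median of 0.029. The lists of this paragraph are read beside 16.3% lower and 14.1% higher among all genes. With library size in place of TMM 1 mural gene was lower and 5 were higher, beside 1276 and 7397 of all 16753 genes. Without iADKO replicate 1, 2 mural genes were higher, and without fl/fl replicate 3, 1 was. Without fl/fl replicate 5 or iADKO replicate 6, 2 were lower. At an unadjusted p under 0.05, 3 were higher, and in DESeq2 1 was. *Cspg4*, which encodes NG2 and is also expressed outside mural cells, fell from 130.3 ± 27.2 to 71.5 ± 5.51 CPM (SD, n = 7 and 6; log2 fold change -0.87, edgeR adjusted p = 6.40e-04). *Myh11*, a contractile gene of smooth muscle, was at 221 ± 73.5 and 439 ± 289 CPM (log2 fold change 0.99, adjusted p = 0.0586). The summed level of the list was 2543 CPM in iADKO replicate 5 and 2269 CPM in iADKO replicate 6, above the highest fl/fl library at 1712 CPM. Of other cell types, 0 of 8 progenitor and fibroblast genes and 0 of 6 mesothelial genes passed in edgeR. Their medians were 0.076 and 0.25, and their most abundant genes *Dcn* and *Upk3b*. At an unadjusted p under 0.05, 1 progenitor gene was lower and 1 higher, and 2 mesothelial genes were higher, and DESeq2 called 1 progenitor gene lower and 1 mesothelial gene higher. In edgeR with library size in place of TMM, 4 progenitor and 2 mesothelial genes were higher, and with scaling to pan-endothelial genes 1 mesothelial gene was. Without iADKO replicate 6, 2 progenitor genes were higher, without fl/fl replicate 5, 1 progenitor gene was lower and 1 higher, and without fl/fl replicate 2 or 5, 1 mesothelial gene was higher. Of 5 B cell genes 2 were higher (*Cd79a* 0.66, adjusted p = 0.04995; *Cd79b* 0.79, adjusted p = 0.0338), and of 5 T cell genes 2 (*Cd4* 0.68, adjusted p = 0.00346; *Cd3d* 0.63, adjusted p = 0.00444). All 5 B cell and all 5 T cell genes were higher with library size in place of TMM, with scaling to pan-endothelial genes 0 B cell and 3 T cell genes were, and with the runs of animal numbers as a term 1 of each. At an unadjusted p under 0.05, 5 B cell and 3 T cell genes were higher, and in DESeq2 3 and 2. Of 3 platelet genes tested in edgeR, *Pf4* was higher (0.60, adjusted p = 0.00151). *Itga2b* (0.43, adjusted p = 0.0720) and *Ppbp* (0.55, adjusted p = 0.465) were not called. Which cells carried the *Pf4* RNA was not tested. Of 5 red blood cell genes, 0 passed in edgeR, at an unadjusted p under 0.05 or in DESeq2. Their summed levels were 91.4 to 349 CPM in fl/fl and 67.5 to 420.3 CPM in iADKO.

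Of the 42 called genes that the naming rule took from these lists, 28 passed in every one of the 13 fits that left out 1 mouse, 37 with library size in place of TMM, 41 with DESeq2 and 17 with the runs of animal numbers as a term. The other 14 lost their call in at least 1 of the 13 fits. *Csf1r* was lost in 11 of the 13 fits (highest edgeR adjusted p 0.0762, without iADKO replicate 4), *Icam1* in 10 (0.0874, without iADKO replicate 2) and *Cd79a* in 10 (0.106, without iADKO replicate 4). *Adam17* (0.0702) and *Reln* (0.0973), both highest without iADKO replicate 2, *Sema3g* (0.0874, without iADKO replicate 5) and *Vhl* (0.104, without iADKO replicate 3) were each lost in 9. *Fli1* (0.0830, without iADKO replicate 3), *Sele* (0.107, without iADKO replicate 6) and *Cd79b* (0.0716, without iADKO replicate 4) were lost in 8, *Lrg1* in 6 (0.0721, without iADKO replicate 5), *Tcf15* and *Ushbp1* in 2 (0.0585 and 0.0558, without iADKO replicate 2) and *Lep*, an adipocyte marker, in 1 (0.0522, without iADKO replicate 4). Of the 4 genes named after their values were seen, *Egfl7* was lost in 8 of the 13 fits (highest adjusted p 0.0954, without iADKO replicate 1), *Btnl9* in 7 (0.0540, without fl/fl replicate 4), *Arnt* in 1 (0.0515, without iADKO replicate 5) and *Gpihbp1* in 0 (0.0409, without fl/fl replicate 1), with edgeR. All 4 lost the call with library size in place of TMM, where *Arnt* turned positive (0.042, adjusted p = 0.5678). With the runs of animal numbers as a term all 4 lost it too, at log2 fold changes of -0.23 for *Egfl7*, -0.53 for *Gpihbp1*, -0.50 for *Btnl9* and -0.15 for *Arnt* (adjusted p = 0.140, 0.0683, 0.0983 and 0.0990).

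Across the 13 mice, after the mean of each label was subtracted, the genes whose log2 CPM was most like that of *Cdh5* among 13853 genes were *Thoc3* (Pearson r 0.962), *Gfer* (0.960), *Zbtb11os1* (0.952), *Itgb1bp1* (0.941) and *Ndufa12* (0.940). For *Vegfa* they were *Rassf6* (0.945), *Rasd1* (0.940), *Acad10* (0.939), *Gm16168* (0.938) and *Tars3* (0.928). None of the 10 genes or of the endothelial lists was among these neighbors. These r describe 13 libraries that share depth and cell makeup. *Vegfa* in iADKO replicate 6 was at 241 CPM, far above the median of its label (146 CPM). How far the r for *Vegfa* rest on that library was not tested.

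The promoters of *Vegfa* and *Kdr*, a ligand and its receptor, are shown because both genes fell and their 250 bases before the canonical start hold no annotated exon. Capitals mark matches on either strand to GGAAG, the core bound by ETS factors, which many endothelial genes carry, to GGGCGG, the GC box bound by SP1, and to ACGTG, the core bound by hypoxia-inducible factors. Sequences are from GRCm39, 5′ to 3′ on the strand of the gene.
*Vegfa*, minus strand, chr17:46343310-46343559: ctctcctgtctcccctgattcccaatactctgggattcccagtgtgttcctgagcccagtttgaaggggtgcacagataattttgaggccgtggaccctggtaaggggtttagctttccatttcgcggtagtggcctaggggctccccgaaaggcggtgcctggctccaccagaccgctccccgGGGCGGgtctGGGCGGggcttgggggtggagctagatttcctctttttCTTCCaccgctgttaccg
*Kdr*, minus strand, chr5:76139119-76139368: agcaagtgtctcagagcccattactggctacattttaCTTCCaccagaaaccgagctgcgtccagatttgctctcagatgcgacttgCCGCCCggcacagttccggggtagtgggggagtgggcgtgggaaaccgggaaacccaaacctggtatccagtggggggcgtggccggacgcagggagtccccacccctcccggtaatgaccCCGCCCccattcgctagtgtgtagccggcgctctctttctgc
*Vegfa* held 1 match to GGAAG and 2 to GGGCGG, and *Kdr* 1 and 2, and these matches did not overlap one another. Of the 14133 promoters of protein-coding genes tested, 66.8% held GGAAG, 47.5% GGGCGG and 20.2% ACGTG in a window of this length. Neither window held ACGTG, while the *Kdr* window held gcgtg, another form of that core, in lower case. A match describes letters only.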

How the data were processed

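The 10 genes and all gene lists were chosen with earlier results of these data known. The authors deposited raw counts per gene, made from reads checked with FastQC 0.12.1 and aligned with STAR 2.7.11a to mm39 by the submitters' processing notes, and rlog values on a log2 scale by DESeq2. The counting tool, its strand setting and its annotation are not given in the sources used here. Positions and lengths are from GENCODE vM39 on GRCm39, which matched 33184 of 33618 identifiers. Counts were filtered by group, scaled by TMM and tested in edgeR 4.0.16 (R 4.3.3; quasi-likelihood test, robust fit), with Benjamini-Hochberg adjustment over all 16753 genes tested. DESeq2 1.42.0 and limma 3.58.1 were alternatives. Ratios were compared by an exact permutation test, two-sided, over all ways to assign the labels to the mice; its smallest p is 0.000583. Named genes are the 10 genes, *Lmna*, and from each list the most abundant gene and up to 3 called genes with the largest log2 fold change in each direction, with the 5 genes most like *Cdh5* and *Vegfa* across mice. *Egfl7*, *Gpihbp1*, *Btnl9* and *Arnt* are named outside this rule, after their values were seen. The lists cover pan-endothelial, fat capillary, arterial, venous and lymphatic genes, VEGF family, Tie partners, sprouting, adhesion, hypoxia, inhibitors and growth factors, and markers of mural cells, adipocytes, macrophages, progenitors, mesothelium, B cells, T cells, platelets and red blood cells. *Gp1bb*, on the platelet list, was not matched.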

Additional observations from a re-analysis of the deposited data

Results flagged for a closer look

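In 4 of 30 groups of values, 1 library lay far from the others of its label, by Dixon's ratio of the gap to its nearest neighbor over the whole range. *Vegfa* was at 241 CPM in iADKO replicate 6, with a gap of 0.80 of the range. *Vegfb* was at 75.8 CPM in fl/fl replicate 5 (0.703 of the range) and at 87.3 CPM in iADKO replicate 6 (0.702 of the range). *Angpt2* was at 13.9 CPM in iADKO replicate 2 (0.677 of the range). Chance flags about 1 in 20 groups. Both *Vegfb* values lie toward the other label, and the same libraries lie toward the other label in the summed adipocyte and macrophage markers. What sets these libraries apart was not tested. Without iADKO replicate 6 the log2 fold change was -1.01 for *Vegfa* and -0.85 for *Vegfb*.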

How the results depend on the processing

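*Vegfa*, *Vegfb* and *Kdr* kept their call and direction under all 22 alternatives tried: other scalings, filters and tools, the terms below, and leaving out each mouse. With library size in place of TMM, 8673 genes were called, against 5104, 3 of the 10 genes were lower and 1 higher, and 1 pan-endothelial gene was lower and 6 were higher. Scaling to pan-endothelial genes gave 4 of the 10 genes lower and 1 higher, and 2 pan-endothelial genes lower and 2 higher. This scaling makes the summed counts of the pan-endothelial genes equal between libraries. Their calls there cannot show whether the list as a whole changed. With the runs of animal numbers as a term, 1986 genes were called (1202 lower and 784 higher), 3 of the 10 genes were lower, and 0 pan-endothelial genes were called lower or higher in edgeR. DESeq2 size factors, no filter on low counts and limma on rlog values each gave 1 pan-endothelial gene higher. *Lmna* was called higher with library size (0.40) and with scaling to pan-endothelial genes (0.29). Leaving out each mouse gave 3998 to 6604 genes called, 4 to 6 of the 10 genes lower and 0 higher in edgeR, 2 to 11 pan-endothelial genes lower and 1 to 2 higher, and log2 fold changes of *Lmna* from 0.15 to 0.24. It gave differences of 0.32 to 0.54 in the *Angpt2* to *Angpt1* ratio. The cause of these changes was not tested. With replicate number as a block, in a fit that also left out fl/fl replicate 7, 6 of the 10 genes were lower. The numbers were not taken to pair the mice. The residual correlation of mice of the same number averaged 0.107 and passed 0.1 in 3 of 6 pairs, beside a mean of -0.020 in other pairs. Among the 10 genes *Angpt2* had the fewest counts, 182 to 297 per library, with an SE of 0.0903, beside 2623 to 4432 counts and an SE of 0.0862 for *Kdr*; what depth limits was not tested.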
